A study of Homo sapiens with 3 samples.

Results

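Interferon-stimulated genes are genes whose transcription goes up when a cell senses interferon or foreign nucleic acid. The set described here holds 49 such genes, named from general knowledge of the interferon response: antiviral effectors, RNA sensors, transcription factors of the pathway, interferon-induced chemokines and genes of antigen processing. The set was chosen with earlier results of these data known, so its contrasts with all genes are no independent check. Every probe set annotated to a single gene symbol was taken where that symbol was a member. Of the 49 members, 48 had such a probe set and STAT2, a transcription factor subunit, was not analysed here. Of the 48 genes, 41 had a probe set above the brightness floor explained below, out of 12075 genes above that floor and 19775 named genes in the table.

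Type I and type III interferons act through receptors at the cell surface and the kinases JAK1 and TYK2. These activate ISGF3, a complex of STAT proteins and IRF9, which binds interferon-stimulated response elements in promoters. Interferon gamma acts mainly through another element, the gamma-activated site, and induces the transcription factor IRF1. In tumour cells the same genes can be expressed without an added interferon, and some of them are also targets of NF-kB and of the IRF factors downstream of nucleic acid sensors.

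The genes were measured in MDA-MB-231 cells, an established human breast cancer line usually counted among the estrogen receptor negative, basal-type lines. Cells were kept for 4 h in medium with 10% charcoal-stripped serum, which is depleted of steroid hormones, and then treated for 3 h in that medium. Tamoxifen, a selective estrogen receptor modulator, was given at 1 µM, and estradiol, the main natural estrogen, at 1 µM. The vehicle was 0.1% ethanol, and no interferon is named in the labels. By the labels each treatment was measured on 1 Affymetrix array that targets human transcripts, so 3 arrays in all, and no difference below has a replicate check, an error or a p-value. The number of arrays limits the precision.

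The deposited values are on a log scale, taken here as log2, and are centred for each probe set on a baseline that is not stated. A value is therefore a distance from that baseline and not a level, and values of different genes have no order. The comparisons rest on differences between arrays, and that a higher value means more RNA was assumed. Brightness was read from the binary steps of the deposited numbers, which are coarser for larger levels, and probe sets at a level of 4 or more lay above the floor. The floor kept 107 of 121 probe sets of ribosomal protein genes (88.4%), 14 of 107 of olfactory receptor genes (13.1%) and 0 of 20 of bitter taste receptor genes. A gene was called higher or lower where it differed by at least 1.5-fold, a log2 difference of 0.58. Over all genes above the floor the values had an SD of 0.487 with tamoxifen, 0.485 with estradiol and 0.203 with vehicle. The vehicle values also lay on finer binary steps than the ligand values, and were shifted to match when brightness was read. Because the vehicle values spread so much less, each difference from vehicle was taken a further time with a doubled vehicle value. Which of these settings is nearer to the true differences was not tested. The comparison of tamoxifen with estradiol does not use the vehicle values.

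Cell identity was checked on markers. Of 10 genes typical of epithelial cells or of this line, 9 lay above the floor and 8 of them in the band from 8 to 16, the brightest. CDH1, the epithelial cadherin that MDA-MB-231 cells are known to lack, lay below the floor. Of 16 leukocyte markers, 3 lay above the floor (PTPRC, CD4 and GNLY) and 0 in the brightest band.

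As a description of the centred values, the members' median distance from the baseline was 0.36 with tamoxifen, 0.56 with estradiol and 0.27 with vehicle, against -0.02, -0.02 and -0.05 over all genes above the floor. In 31 of the 41 genes the estradiol array held the highest of the 3 values. The order estradiol, tamoxifen, vehicle from high to low was seen in 19 members (46.3%, against 18.5% of all genes). The order estradiol, vehicle, tamoxifen was seen in 12 members (29.3%, against 13.1% of all genes): IRF9, IFIT1, IFIT2, OASL, ISG20, HERC6, IFITM1, IFITM3, PARP14, DTX3L, IFI6 and XAF1. The order tamoxifen, estradiol, vehicle was seen in 6 members (14.6%, against 21.7% of all genes): IRF1, IFIT5, EIF2AK2, GBP1, BST2 and SAMD9. The order vehicle, estradiol, tamoxifen was seen in 4 (9.76%, against 21.6% of all genes): IRF7, ISG15, IFITM2 and IFI35. Orders given here and below take the vehicle value as deposited, and they depend on its scale. With the vehicle doubled, tamoxifen was above vehicle in 9 members, where 56.9% of all genes were. Estradiol was then below vehicle in 11 members, where 39.0% of all genes were.

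**Figure D1:**
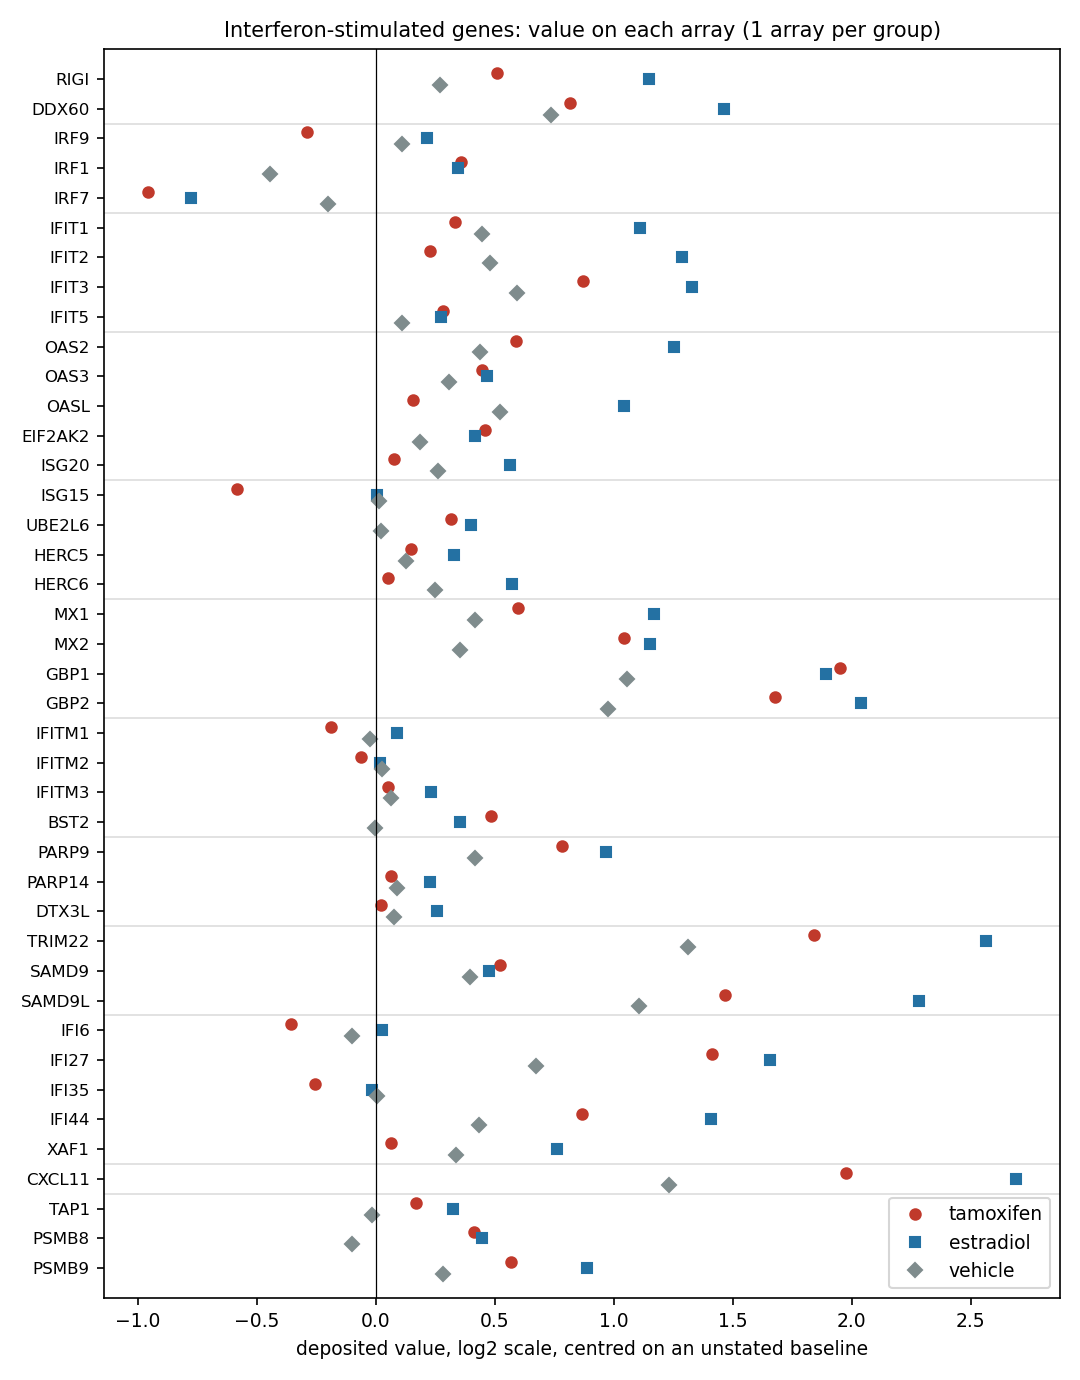
Deposited log2 value of each of the 41 interferon-stimulated genes above the floor on the tamoxifen (circles), estradiol (squares) and vehicle (diamonds) array, grouped by role between grey lines. The estradiol value is the rightmost in 31 genes, and in CXCL11 it is 2.69, with tamoxifen at 1.97 and vehicle at 1.23.

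Compared directly, the tamoxifen array held lower values of these genes than the estradiol array. Of the 41 members, 35 were below 0 in tamoxifen minus estradiol (85.4%), where 53.1% of all genes were below 0. The members' median was -0.28, against -0.02 over all genes. In RNA from whole cultures, fewer cells with a transcript and less of it per cell cannot be told apart. At the 1.5-fold rule 11 members were lower with tamoxifen (26.8%), where 2.2% of all genes were, and 0 were higher, where 1.57% of all genes were. The 11 were RIGI, DDX60, IFIT1, IFIT2, OAS2, OASL, ISG15, TRIM22, SAMD9L, XAF1 and CXCL11. At 2-fold only IFIT2 was lower (0.24% of all genes were) and 0 members were higher (0.0828% of all genes were). The 6 members above 0, where 46.8% of all genes were, were IRF1, IFIT5, EIF2AK2, GBP1, BST2 and SAMD9, and the highest of these, BST2, stood at 0.13.

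Counts of single probe sets are no separate check, because 48 of them gave the gene values. The members had 55 probe sets above the floor, of which 46 were below 0 in tamoxifen minus estradiol, 14 were lower past 1.5-fold and 0 were higher. The same counts over all probe sets above the floor were not taken. Among 12 members with several probe sets above the floor, all probe sets of the gene had the same sign in 7 (58.3%), as they did in 48.0% of 5369 such genes in the whole table. The SD between probe sets of the same gene was 0.25 for this comparison over the table. Of the 13 members in the brightest band 3 were lower, where 1.46% of all genes in that band were, with a median of -0.18. Of the 28 members in the band from 4 to 8, 8 were lower, where 2.72% of all genes in it were, with a median of -0.37. With all probe sets of a gene averaged, RIGI (-0.49), OAS2 (-0.19) and XAF1 (-0.38) no longer passed the rule.

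**Figure D2:**
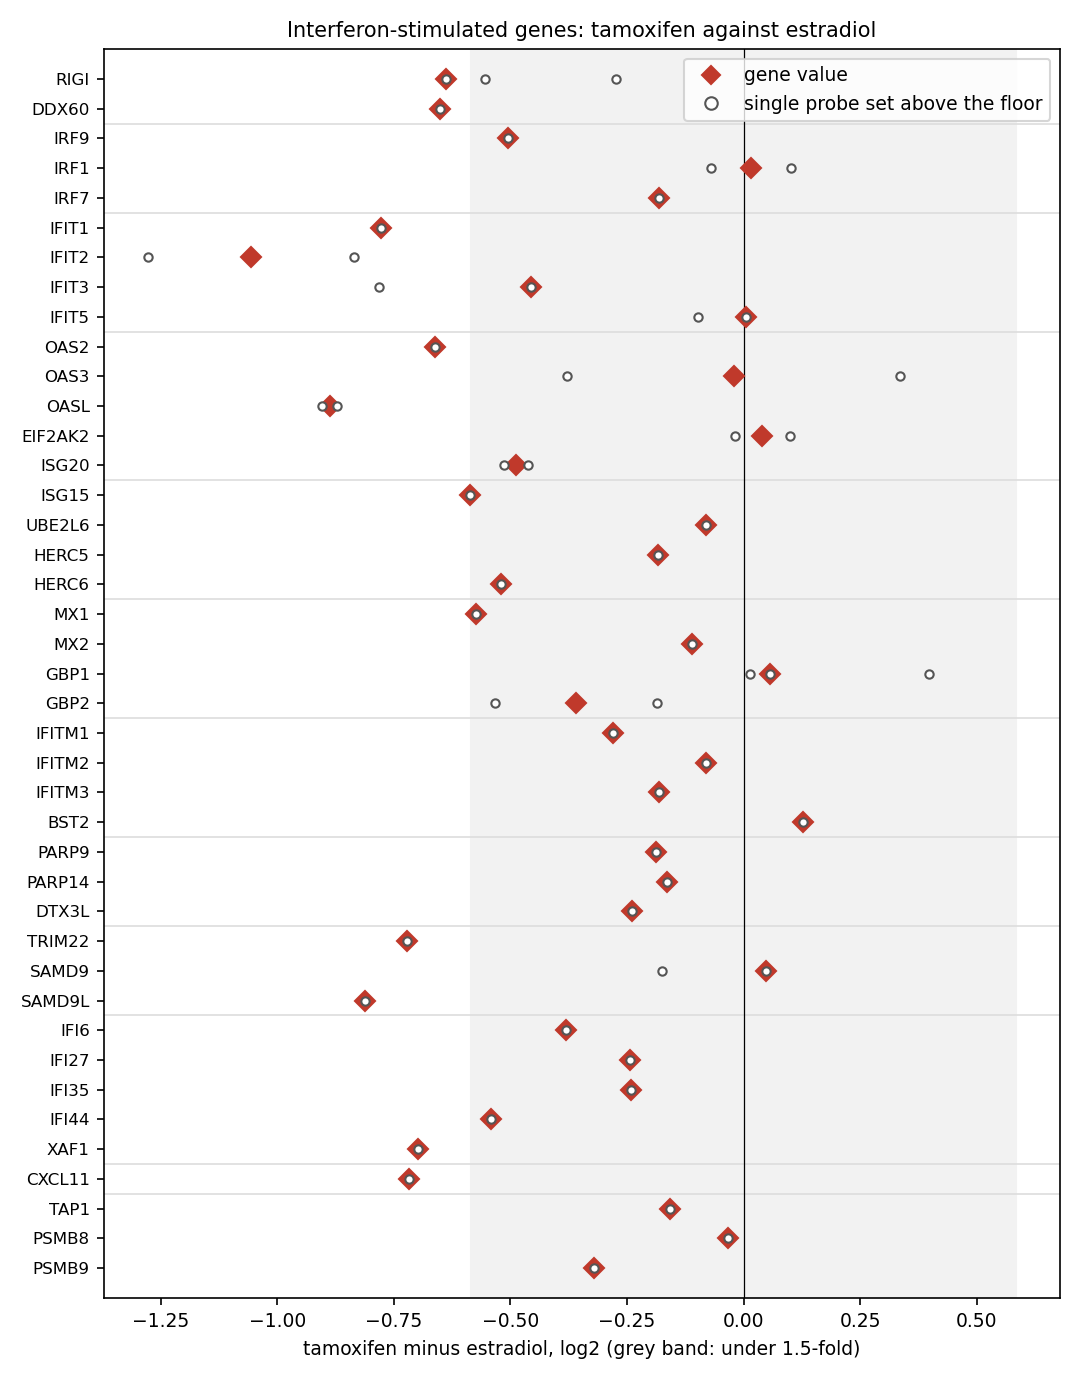
Tamoxifen minus estradiol difference (log2) for each of the 41 interferon-stimulated genes (diamonds) and for each of their single probe sets above the floor (open circles); the grey band marks differences under 1.5-fold. Diamonds of 11 genes lie left of the band and those of 0 genes right of it, and the probe sets of OAS3 fall on both sides of 0.

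The RNA sensors were both lower with tamoxifen than with estradiol. RIGI, which encodes RIG-I, a cytosolic sensor of viral RNA, had values of 0.51 with tamoxifen, 1.15 with estradiol and 0.27 with vehicle. Its tamoxifen minus estradiol difference was -0.64, and its dimmer probe sets gave -0.55 and -0.27. DDX60, a helicase linked to RIG-I signalling, had 0.81 with tamoxifen, 1.47 with estradiol and 0.74 with vehicle, a tamoxifen minus estradiol difference of -0.65. In both gene values as deposited the estradiol array stood above the other arrays, and the tamoxifen value lay nearer to vehicle. The dimmer probe sets of RIGI differed from this. They gave -0.34 and -0.17 in tamoxifen minus vehicle, and 0.21 and 0.10 in estradiol minus vehicle. With the vehicle doubled, DDX60 stood at -0.66 in tamoxifen minus vehicle and -0.0080 in estradiol minus vehicle. IFIH1, which encodes the related sensor MDA5, had no probe set above the floor. Its brightest one had 1.59 with tamoxifen, 2.19 with estradiol and 0.93 with vehicle.

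The transcription factors did not move together. IRF9, the DNA-binding subunit of ISGF3, had -0.29 with tamoxifen, 0.22 with estradiol and 0.11 with vehicle, so that only the tamoxifen array was below its baseline. The tamoxifen minus estradiol difference of IRF9 was -0.51, under the size rule. IRF1, a factor that interferon gamma and NF-kB both induce, had 0.36 with tamoxifen, 0.34 with estradiol and -0.45 with vehicle. Both ligand arrays were thus above the vehicle array by similar amounts, 0.81 for tamoxifen and 0.79 for estradiol, and apart from each other by 0.02. IRF7, which drives the transcription of type I interferon genes, had -0.96 with tamoxifen, -0.78 with estradiol and -0.20 with vehicle. It was the lowest member in both comparisons with vehicle, at -0.76 for tamoxifen, lower past the rule, and -0.58 for estradiol, just under it.

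The IFIT genes encode proteins that bind foreign RNA and block its translation. IFIT2 had 0.23 with tamoxifen, 1.29 with estradiol and 0.48 with vehicle. It was 2.08-fold lower with tamoxifen than with estradiol (log2 difference -1.06), the lowest value of the set, and its 2 probe sets gave -1.28 and -0.84. IFIT1, which recognises RNA caps that lack a host modification, had 0.33 with tamoxifen, 1.11 with estradiol and 0.45 with vehicle. Its tamoxifen minus estradiol difference was -0.78. In the gene values of IFIT1 and IFIT2 tamoxifen was the lowest of the 3 and estradiol the highest. The 2 probe sets of IFIT2 disagreed in tamoxifen minus vehicle, at -0.68 and 0.18. IFIT3, a partner that stabilises IFIT1, had 0.87 with tamoxifen, 1.33 with estradiol and 0.59 with vehicle. Its brighter probe set gave -0.46 and its dimmer one -0.78 for tamoxifen minus estradiol. IFIT5, the other measured gene of the family, had 0.28 with tamoxifen, 0.28 with estradiol and 0.11 with vehicle, and the ligand arrays differed by 0.01.

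Promoters of interferon-stimulated genes can carry the response element bound by ISGF3 and IRF factors, and 5 that hold its motif are shown. They are given below for IFIT1 (-0.78 in tamoxifen minus estradiol) and IFIT3 (-0.46), for IFIT5 (0.01), and for MX1 (-0.57) and BST2 (0.13), described further on, so that low and high members can be set side by side. Each sequence is the sense strand from RefSeq on build GRCh38.p14 and runs 5′ to 3′ from 250 bases before the annotated start to 50 after it, 300 bases in all. Capitals mark matches to the response element motif, which is GAAA, any 2 bases and GAAA, or to its reverse complement. The windows are chr10:89392373-89392672 on the plus strand for IFIT1, chr10:89327747-89328046 on the plus strand for IFIT3, chr10:89414318-89414617 on the plus strand for IFIT5, chr21:41420308-41420607 on the plus strand for MX1 and chr19:17405581-17405880 on the minus strand for BST2.
IFIT1: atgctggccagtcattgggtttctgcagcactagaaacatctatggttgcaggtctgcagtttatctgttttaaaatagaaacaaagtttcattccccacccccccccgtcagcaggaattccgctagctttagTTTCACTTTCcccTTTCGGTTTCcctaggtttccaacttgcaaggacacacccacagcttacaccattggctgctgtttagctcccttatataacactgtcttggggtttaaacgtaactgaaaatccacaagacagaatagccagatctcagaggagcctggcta
IFIT3: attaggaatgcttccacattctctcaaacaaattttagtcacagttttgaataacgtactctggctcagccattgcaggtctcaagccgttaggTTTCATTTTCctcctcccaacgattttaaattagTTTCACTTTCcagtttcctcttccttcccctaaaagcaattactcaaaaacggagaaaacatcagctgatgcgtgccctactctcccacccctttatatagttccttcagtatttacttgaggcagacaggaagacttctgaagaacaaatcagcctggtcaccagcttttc
IFIT5: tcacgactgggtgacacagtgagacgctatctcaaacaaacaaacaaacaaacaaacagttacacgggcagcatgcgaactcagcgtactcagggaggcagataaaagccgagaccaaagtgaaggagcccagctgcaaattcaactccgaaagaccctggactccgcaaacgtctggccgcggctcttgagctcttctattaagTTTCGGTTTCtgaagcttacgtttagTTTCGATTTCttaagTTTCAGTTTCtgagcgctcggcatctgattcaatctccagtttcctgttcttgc
MX1: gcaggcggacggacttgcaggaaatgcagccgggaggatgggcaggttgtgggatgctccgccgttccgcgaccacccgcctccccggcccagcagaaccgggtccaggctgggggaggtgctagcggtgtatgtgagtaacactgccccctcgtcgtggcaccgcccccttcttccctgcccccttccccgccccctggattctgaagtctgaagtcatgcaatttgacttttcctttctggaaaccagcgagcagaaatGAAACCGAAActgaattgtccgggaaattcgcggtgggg
BST2: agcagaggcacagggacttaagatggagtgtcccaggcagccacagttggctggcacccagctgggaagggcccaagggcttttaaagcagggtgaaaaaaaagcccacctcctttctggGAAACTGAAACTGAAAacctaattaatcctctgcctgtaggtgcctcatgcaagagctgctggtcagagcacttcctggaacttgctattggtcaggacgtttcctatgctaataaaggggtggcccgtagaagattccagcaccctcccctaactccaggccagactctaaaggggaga

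With the start base counted as 0, the 2 matches in IFIT1 begin at -116 and -103, and the 2 in IFIT3 at -156 and -122. The 3 matches in IFIT5 begin at -45, -19 and -4. BST2 holds 2 overlapping matches that begin at -130 and -124, and the match in MX1 begins at 11, after the annotated start. IFIT5 held the most matches of these 5 promoters. A match describes the letters only and is no evidence that a factor was bound.

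Promoters in the RefSeq table were matched for 40 members. The response element motif was found on either strand in 24 of the 40 (60%), against 996 of 27305 promoters of the same length (3.65%). The gamma-activated site motif TTCNNNGAA, which reads the same on both strands, was found in 10 of the 40 (25%), against 7.88% of all promoters. Of the members above the floor, 33 had a promoter in the table. The 21 with a response element match had a median tamoxifen minus estradiol difference of -0.24, with 3 lower past 1.5-fold. The 12 without a match had a median of -0.41, with 4 lower. The 254 other genes above the floor with a match had a median of -0.02, with 4 of them lower (1.57%), and the 9567 other genes without a match also had a median of -0.02, with 1.87% lower. In estradiol minus vehicle the medians were 0.23 for members with a match, 0.55 for members without and 0.07 for other genes with a match. Lower members were found both with and without a match in this window. IFIT2, OAS2, OASL and TRIM22, also lower past the rule, had no promoter among those searched. Genes outside the set that carry the motif had a median near that of all genes. The part of the motif in the differences was not tested.

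**Figure D3:**
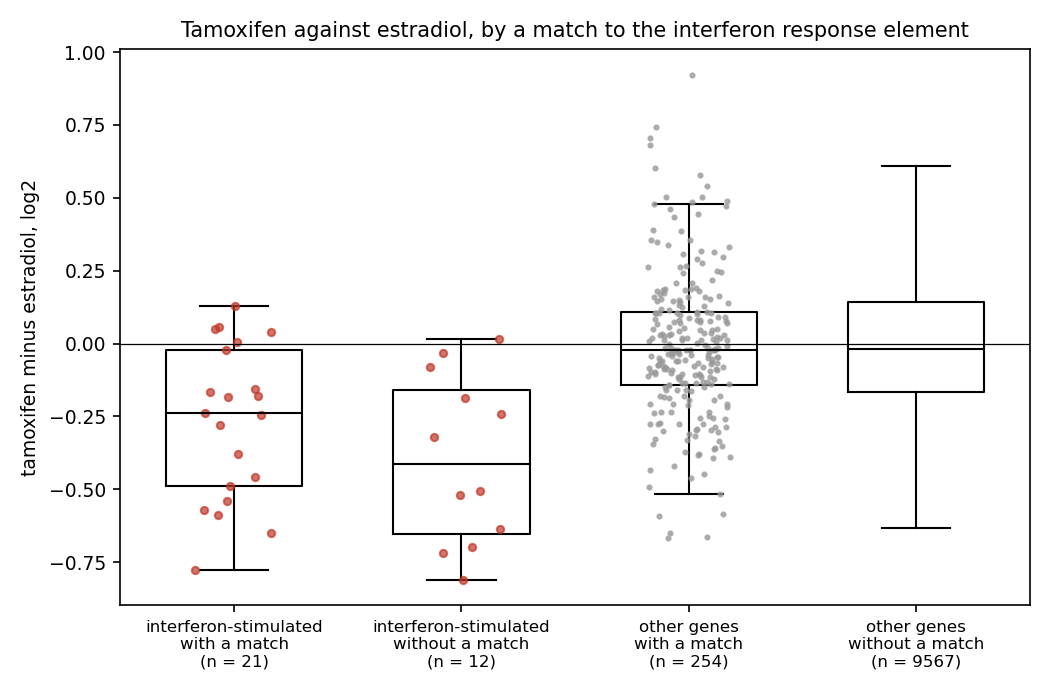
Tamoxifen minus estradiol difference (log2) of interferon-stimulated genes and of other genes above the floor, with and without a match to the response element motif in the promoter window. Points are genes, boxes show quartiles with the median as a line, and whiskers reach the last gene within 1.5 box lengths; single genes are not drawn for the last group. The medians are -0.24 and -0.41 for the interferon-stimulated genes and -0.02 and -0.02 for other genes.

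Of the oligoadenylate synthetases, whose product activates RNase L against viral RNA, OAS2 had 0.59 with tamoxifen, 1.25 with estradiol and 0.44 with vehicle. Its tamoxifen minus estradiol difference was -0.66. OASL, a relative without synthetase activity that enhances RIG-I signalling, had 0.16 with tamoxifen, 1.04 with estradiol and 0.52 with vehicle. OASL differed by -0.89, and its 2 probe sets gave -0.87 and -0.90. OAS2 and OASL were thus both highest on the estradiol array, while tamoxifen lay above vehicle in OAS2 and below it in OASL. The value of OAS3, -0.02, is the mean of probe sets that disagreed, at -0.38 and 0.34, and carries no direction. ISG20, an RNA exonuclease, stood at -0.49 and EIF2AK2, the kinase PKR that stops translation, at 0.04. OAS1 had no probe set above the floor.

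ISG15 is a ubiquitin-like protein that is joined to other proteins by the enzymes UBE2L6 and HERC5. ISG15 had -0.58 with tamoxifen, 0.01 with estradiol and 0.01 with vehicle. It was lower with tamoxifen than with estradiol (-0.59), just past the rule, and its estradiol minus vehicle difference was -0.01. In ISG15, as in IRF9, the tamoxifen value was the one that stood apart, below the other 2 arrays. UBE2L6 differed by -0.08 between tamoxifen and estradiol and HERC5 by -0.18. HERC6, the relative of HERC5, differed by -0.52. A second probe set of HERC6, below the floor, gave 0.33, and the average of both was -0.09. USP18, which removes ISG15 from proteins, lay below the floor.

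The MX and GBP genes encode large GTPases induced by interferons, and all 4 were higher with estradiol than with vehicle past the size rule. MX1, which blocks influenza and other viruses, had 0.60 with tamoxifen, 1.17 with estradiol and 0.42 with vehicle. Its tamoxifen minus estradiol difference was -0.57, just under the rule. MX2, a restriction factor of HIV, had 1.04 with tamoxifen, 1.15 with estradiol and 0.35 with vehicle. GBP1, a guanylate-binding protein strongly induced by interferon gamma, had 1.95 with tamoxifen, 1.89 with estradiol and 1.06 with vehicle. GBP1 was the highest member in tamoxifen minus vehicle, at 0.89, and its other probe sets above the floor gave 1.09 and 1.42. Its ligand arrays differed by 0.06. GBP2 had 1.68 with tamoxifen, 2.04 with estradiol and 0.98 with vehicle, a tamoxifen minus estradiol difference of -0.36. In MX2, GBP1 and GBP2, but not in MX1, the tamoxifen array too was above vehicle past the rule.

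Members that act at membranes differed little. IFITM1, IFITM2 and IFITM3, which hinder the entry of viruses, differed between tamoxifen and estradiol by -0.28, -0.08 and -0.18. BST2, or tetherin, which holds budding virus at the cell surface, had 0.48 with tamoxifen, 0.36 with estradiol and -0.0039 with vehicle. The ADP-ribosylation genes were PARP9 at -0.19, its ubiquitin ligase partner DTX3L at -0.24 and PARP14 at -0.16. None of these 7 genes was past the rule in any of the 3 comparisons.

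TRIM22 and SAMD9L were lower with tamoxifen than with estradiol. TRIM22, an antiviral ubiquitin ligase, had 1.84 with tamoxifen, 2.56 with estradiol and 1.31 with vehicle, and differed by -0.72 between tamoxifen and estradiol. SAMD9L, which inhibits translation in infected cells, had 1.47 with tamoxifen, 2.28 with estradiol and 1.11 with vehicle, and differed by -0.81. As deposited, both were highest on the estradiol array, with tamoxifen between estradiol and vehicle. With the vehicle doubled, tamoxifen minus vehicle was -0.78 for TRIM22 and -0.75 for SAMD9L, and estradiol minus vehicle -0.06 and 0.06. Probe sets of SAMD9L below the floor gave -0.52 and -1.37 in tamoxifen minus estradiol and 0.53 and -1.41 in tamoxifen minus vehicle. SAMD9, the paralog of SAMD9L, had 0.52 with tamoxifen, 0.48 with estradiol and 0.39 with vehicle, and differed by 0.05. A dimmer probe set of SAMD9 above the floor gave -0.17 in tamoxifen minus estradiol and 0.60 in estradiol minus vehicle.

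Among the IFI genes and XAF1 all 5 were below 0 in tamoxifen minus estradiol. XAF1, an antagonist of the apoptosis inhibitor XIAP, had 0.06 with tamoxifen, 0.76 with estradiol and 0.34 with vehicle, and differed by -0.70. IFI44 had 0.87 with tamoxifen, 1.41 with estradiol and 0.43 with vehicle, and differed by -0.54. A second probe set of IFI44, below the floor, gave 0.59, and the average of both was 0.02. XAF1 had its lowest value on the tamoxifen array and IFI44 on the vehicle array. IFI6, a mitochondrial survival protein, differed by -0.38, IFI27 by -0.24 and IFI35 by -0.24.

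CXCL11, a chemokine that attracts T cells through CXCR3, stood at 1.97 with tamoxifen, 2.69 with estradiol and 1.23 with vehicle, and at -0.72 in tamoxifen minus estradiol. Its second probe set, below the floor, gave -1.01. The related chemokine CXCL10 had a single probe set, below the floor, at -0.02 with tamoxifen, 0.63 with estradiol and 0.73 with vehicle. The genes of antigen processing differed less between the ligands: TAP1, the peptide transporter, by -0.16, and the immunoproteasome subunits PSMB8 and PSMB9 by -0.03 and -0.32. The 7 members without a probe set above the floor were IFIH1, OAS1, USP18, RSAD2, CMPK2, IFI44L and CXCL10. Together with dimmer probe sets of other members, 24 member probe sets lay below the floor. In tamoxifen minus estradiol 14 of these were below 0 and 10 above 0, from -1.37 to 0.59, with a median of -0.23. The share over all probe sets below the floor was not taken, so this count has nothing to be set against.

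Against vehicle, the tamoxifen array held higher values of some members, and the estradiol array of more. With tamoxifen 6 members were higher past 1.5-fold (14.6%), where 6.96% of all genes were, and 2 were lower, where 4.31% of all genes were. The 6 were IRF1, MX2, GBP1, GBP2, IFI27 and CXCL11, and the 2 were IRF7 and ISG15. The members' median was 0.15, against 0.02 over all genes, and 25 of 41 were above 0, where 52.1% of all genes were, and 16 below (47.9%). With estradiol 17 members were higher (41.5%), where 5.82% of all genes were, and 0 were lower, where 2.64% of all genes were. The 17 were RIGI, DDX60, IRF1, IFIT1, IFIT2, IFIT3, OAS2, MX1, MX2, GBP1, GBP2, TRIM22, SAMD9L, IFI27, IFI44, CXCL11 and PSMB9. The members' median was 0.42, against 0.02 over all genes, and 37 of 41 were above 0, where 53.3% of all genes were, and 4 below (46.7%). With all probe sets of a gene averaged, CXCL11 (0.30) lost its call with tamoxifen, and RIGI (0.40), IFIT3 (0.47) and OAS2 (0.56) lost theirs with estradiol. These comparisons share the vehicle array.

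CXCL11 had the largest difference from vehicle of the set with estradiol. It stood at 0.74 with tamoxifen and at 1.46, or 2.75-fold, with estradiol. TRIM22 stood at 0.53 with tamoxifen and 1.25 with estradiol, SAMD9L at 0.36 and 1.17, and GBP2 at 0.70 and 1.06, so that these 4 passed 2-fold upward with estradiol (1.09% of all genes did) and 0 members downward (0.232%). With tamoxifen 0 members passed 2-fold upward (1.23% of all genes did) or downward (0.472%). IFI27, an interferon-induced mitochondrial protein, had 1.41 with tamoxifen, 1.66 with estradiol and 0.67 with vehicle.

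With the vehicle value doubled most of these calls were lost. With tamoxifen the members' median then was -0.16, against 0.06 over all genes. IRF1 and PSMB8 were higher (7.14% of all genes were), and DDX60, IFIT2, OASL, ISG15, TRIM22, SAMD9L and XAF1 were lower (3.64% of all genes were). With estradiol it was 0.10, against 0.07, with RIGI, IRF1 and PSMB8 higher (4.38% of all genes were) and 0 lower (1.92% of all genes were). CXCL11 then stood at -0.49 with tamoxifen and 0.23 with estradiol, GBP1 at -0.16 and -0.22, GBP2 at -0.27 and 0.09, and TRIM22 at -0.78 and -0.06. IRF1, whose vehicle value was below the baseline, stood at 1.25 with tamoxifen and 1.24 with estradiol. It was the only member higher past the rule with both ligands in both settings. RIGI stood at -0.03 with tamoxifen and 0.61 with estradiol. The direction of the tamoxifen array against vehicle for the set as a whole thus differed between the settings, while its direction against estradiol does not depend on them.

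**Figure D4:**
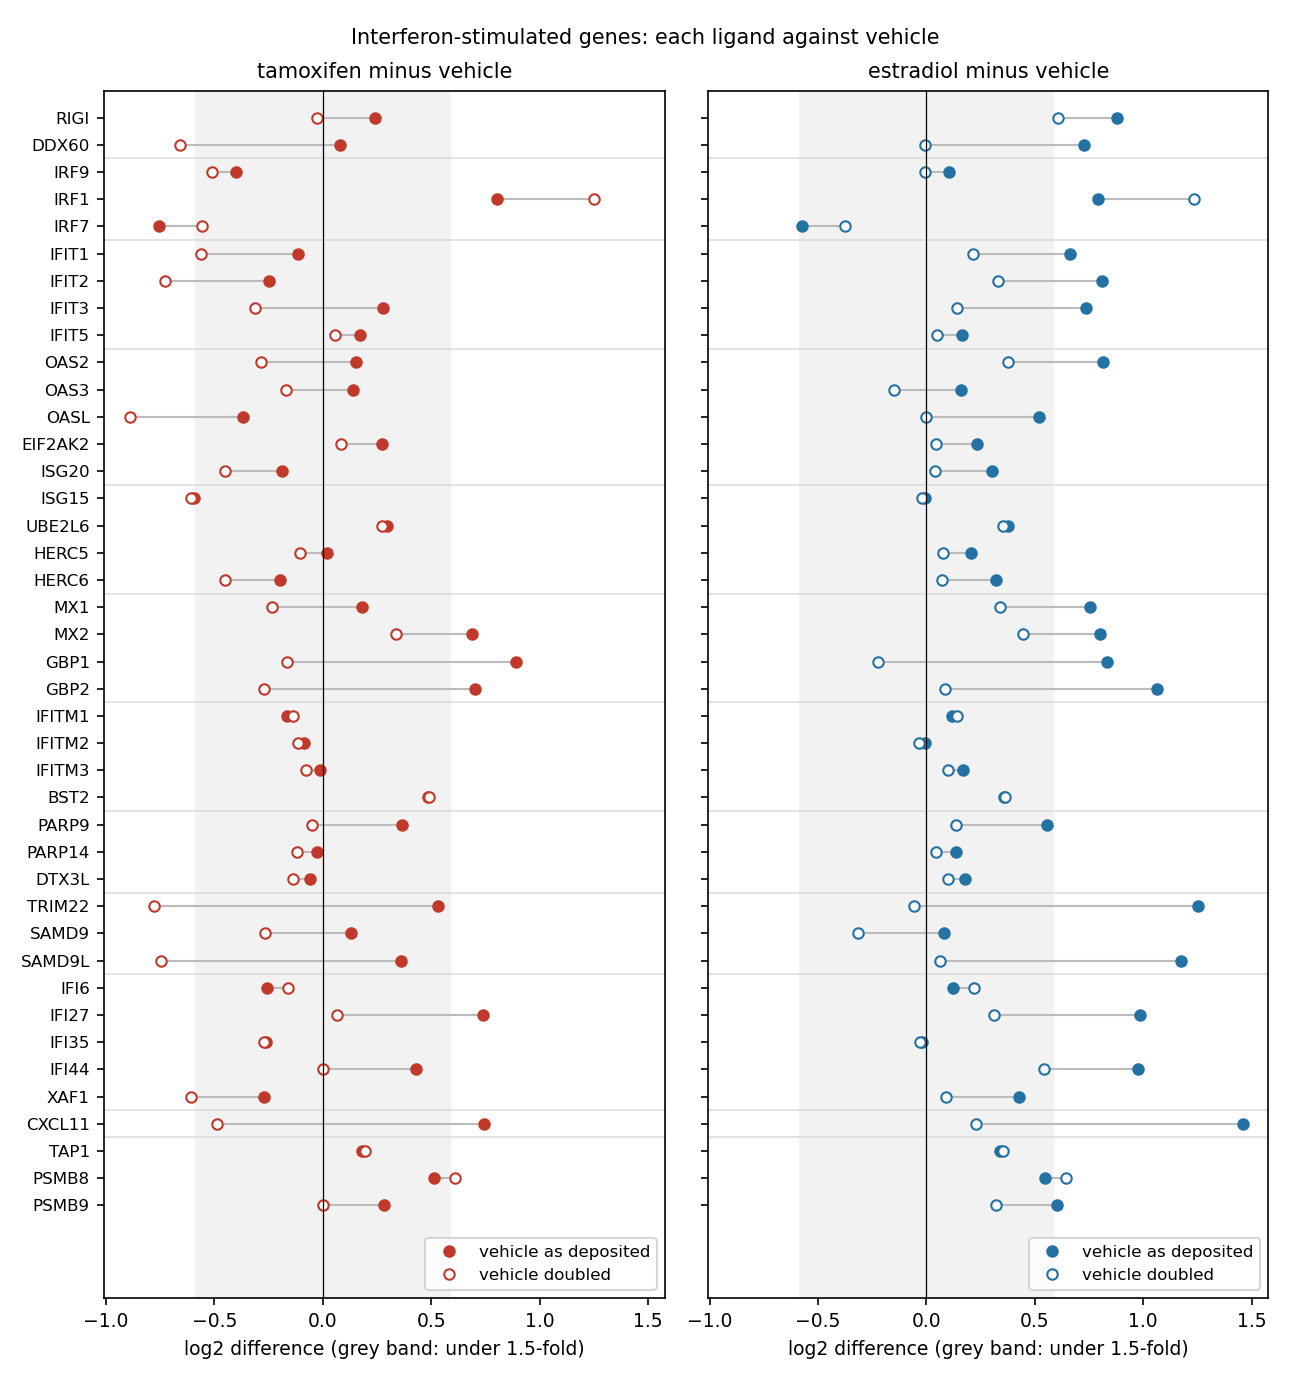
Difference from vehicle (log2) of each of the 41 interferon-stimulated genes with tamoxifen (left) and estradiol (right), with the vehicle value as deposited (filled) and doubled (open); the grey band marks differences under 1.5-fold. As deposited, 6 genes with tamoxifen and 17 with estradiol lie right of the band; with the vehicle doubled 2 and 3 do.

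Genes elsewhere in the pathway were examined as lists drawn from general knowledge, also with earlier results of these data known. Of 18 interferon genes, 15 lay below the floor, IFNB1 among them, 2 had no probe set with their own name, and IFNL1 alone lay above it. IFNL1 encodes a type III interferon and had 0.10 with tamoxifen, 0.20 with estradiol and 0.08 with vehicle. Of 9 receptor and kinase genes 8 lay above the floor, with medians of -0.24 in tamoxifen minus estradiol, 0.03 in tamoxifen minus vehicle and 0.23 in estradiol minus vehicle. IFNLR1, the specific chain of the type III interferon receptor, had 0.30 with tamoxifen, 0.94 with estradiol and 0.18 with vehicle. At -0.64 it was the only gene of that list past the rule in tamoxifen minus estradiol. IFNGR2, a chain of the interferon gamma receptor, stood at -0.52, IFNAR1, a chain of the type I receptor, at -0.40, and IL10RB, the chain shared with other cytokines, at -0.27.

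Of 13 genes of nucleic acid sensing upstream of interferon, 11 lay above the floor with a median of 0.04 in tamoxifen minus estradiol, and 0 were past the rule. DHX58, a RIG-I relative, stood at -0.54, STING1, the adaptor of DNA sensing, at -0.52, the transcription factor IRF3 at -0.41 and the DNA sensor CGAS at 0.48. The negative regulators lay the other way. Of 8 above the floor 6 were above 0 in tamoxifen minus estradiol, with a median of 0.24, and 0 were past the rule. SOCS1, an inhibitor of JAK kinases, had 0.44 with tamoxifen, -0.10 with estradiol and -0.25 with vehicle, and differed by 0.54 between tamoxifen and estradiol and by 0.70 between tamoxifen and vehicle. CISH, a SOCS family member, stood at 0.38, PIAS1, an inhibitor of STAT proteins, at 0.30 and the phosphatase gene PTPN11 at 0.29 in tamoxifen minus estradiol.

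In tamoxifen minus estradiol, other genes known to respond to interferon lay nearer to the median of all genes. In a list of 32 further interferon-induced genes, 27 lay above the floor, with a median of -0.14 in tamoxifen minus estradiol, 1 lower past the rule and 0 higher. The gene past the rule was IL15, a cytokine of T and NK cells, which had 0.88 with tamoxifen, 1.55 with estradiol and 0.48 with vehicle, a tamoxifen minus estradiol difference of -0.67. TRIM21, an antibody receptor of the cytosol, stood at -0.49, APOL1 at -0.48 and NMI at -0.38. Of 23 genes of the interferon gamma response and MHC class I pathway, 19 lay above the floor with a median of -0.02. ICAM1, an adhesion molecule that NF-kB also induces, had 0.73 with tamoxifen, 1.94 with estradiol and 0.61 with vehicle, and was the only one past the rule, at -1.21. CIITA, the activator of MHC class II genes, stood at 0.58, the chemokine gene CXCL9 at 0.58 and the peptide-trimming enzyme gene ERAP1 at 0.50. Against vehicle as deposited, the interferon gamma and MHC class I list had medians of 0.41 with tamoxifen and 0.27 with estradiol. Of its 19 genes, 6 were higher with tamoxifen (6.96% of all genes were) and 5 with estradiol (5.82%). With the vehicle doubled, its medians were 0.24 and 0.28, with 3 and 1 higher. The further interferon-induced genes had medians of -0.08 and 0.06 as deposited.

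A list of 25 NF-kB genes, inflammatory targets and subunits of that factor, had the lowest median of the lists compared here. All of the 17 above the floor were below 0 in tamoxifen minus estradiol, with a median of -0.36, and 4 were lower past the rule. These were IL6 at -0.81, the NF-kB subunit RELB at -0.74, and the chemokine genes CXCL8 at -0.70 and CXCL2 at -0.66. Against vehicle as deposited the list had medians of 0.12 with tamoxifen and 0.46 with estradiol. With the vehicle doubled they were 0.44 and 0.66, where those of the interferon-stimulated genes were -0.16 and 0.10. IL6 had 1.68 with tamoxifen, 2.49 with estradiol and 0.37 with vehicle. As deposited, IL6 and CXCL11 both lay above vehicle on both ligand arrays and highest on the estradiol array. With the vehicle doubled, tamoxifen minus vehicle was 0.94 for IL6 and -0.49 for CXCL11.

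**Figure D5:**
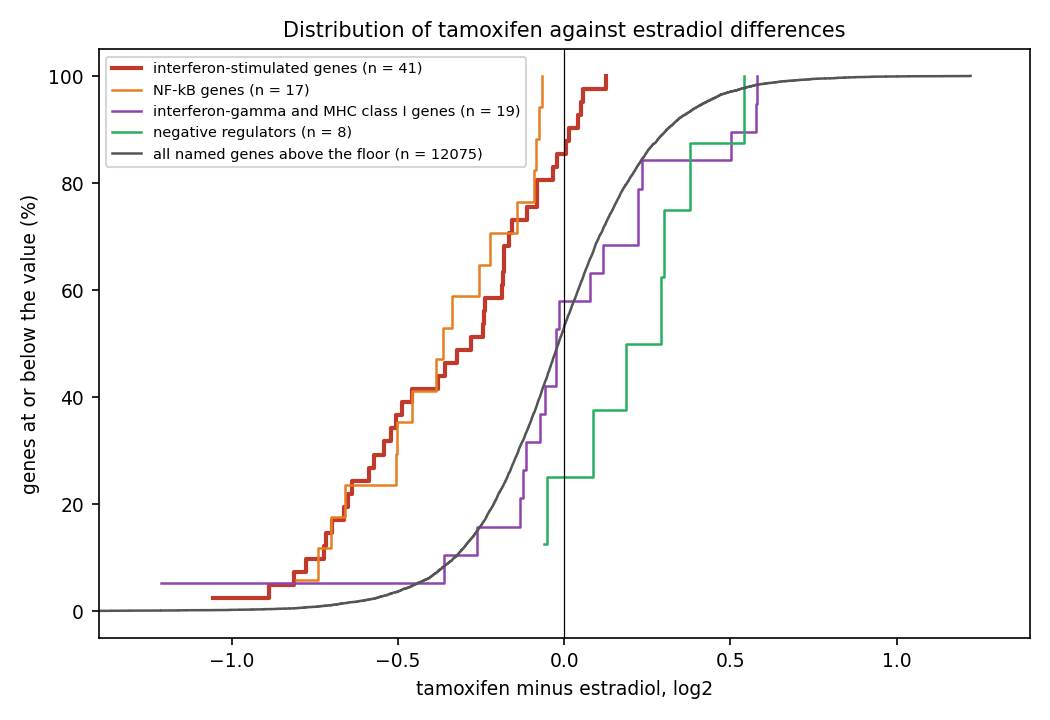
Cumulative share of genes (percent) at or below each tamoxifen minus estradiol difference (log2), for the 41 interferon-stimulated genes, 17 NF-kB genes, 19 interferon gamma and MHC class I genes, 8 negative regulators and all 12075 genes above the floor. The interferon-stimulated and NF-kB curves lie left of the curve of all genes, with medians of -0.28 and -0.36 against -0.02, and that of the negative regulators lies right of it, with a median of 0.24.

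Several technical measures moved with the arrays too. Poly-A spikes are bacterial RNAs that go in ahead of the labelling step. They had a median of -0.16 over 27 probe sets in tamoxifen minus estradiol, 0.84 in tamoxifen minus vehicle and 0.99 in estradiol minus vehicle. The hybridisation spikes, added after labelling, had medians of -0.12, 0.10 and 0.18 over 18 probe sets. With the vehicle doubled, the poly-A medians were 0.36 in tamoxifen minus vehicle and 0.44 in estradiol minus vehicle. Those of the hybridisation spikes were then 0.23 and 0.32. The control probe sets of ACTB, the actin gene, differed between tamoxifen and estradiol by -0.05 at the 3′ end, -0.42 in the middle and -0.996 at the 5′ end, while those of GAPDH differed by 0.07, -0.12 and -0.04. A list of 15 reference genes above the floor had a median of -0.05 in the same comparison, with 0 past the rule. Against vehicle as deposited, 2 of the 15 (13.3%) were higher past the rule with each ligand. PGK1 was among them, at 0.95 with tamoxifen and 0.83 with estradiol. With the vehicle doubled 1 was higher with tamoxifen and 0 with estradiol. The 3 leukocyte markers above the floor were all higher with tamoxifen than with estradiol, PTPRC by 0.62, CD4 by 0.34 and GNLY by 0.09, while the interferon-stimulated genes were mostly lower. The part of these measures in the differences of the interferon-stimulated genes was not tested.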

How the data were processed

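Gene expression in MDA-MB-231 cells was measured on 3 Affymetrix arrays, 1 each for tamoxifen, estradiol and vehicle, grouped by the labels. The authors deposited a table of log2 values for 54675 probe sets, and the submitters' processing notes name RMA (robust multi-array averaging), with no version. That the deposited log2 values were centred per probe set, with no stated baseline, and that their base is 2, was inferred from the values. The number of columns of values left unused was 0.

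Probe sets were named through the platform annotation supplied with the table: 41097 had 1 gene symbol, 1801 had several and 11777 had none, and only the first were used. Each probe set was placed in a brightness band (8 to 16, 4 to 8, 2 to 4, below 2) from the finest binary step of its deposited single-precision values. For this the vehicle values, stored in finer steps, were shifted to match. Gene values average the probe sets of the brightest band that a gene reaches, and genes below the band from 4 to 8 were left out. With 1 array per group no test was run. Differences were taken between columns over all 12075 genes and called at 1.5-fold. Members, lists, tests and alternatives were chosen with earlier results of these data known. The named genes are the members, up to 4 genes of each other list with the largest absolute tamoxifen minus estradiol difference, and IFNAR1, IFNB1 and ICAM1. JAK1, TYK2 and CDH1 are named for background or as a marker. Alternatives were no floor, a floor of 8, all probe sets averaged, no cross-reacting probe set types, the median of all genes subtracted, the vehicle values doubled and a 2-fold rule. The steps were tested on simulated data. Promoters came from a RefSeq table of GRCh38.p14. Python 3.11.15, NumPy 2.4.6, pandas 2.3.3 and matplotlib 3.10.9 were used.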

Additional observations from a re-analysis of the deposited data

How the results depend on the processing

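The median tamoxifen minus estradiol difference of the interferon-stimulated genes was below 0 under each alternative that was run, from -0.36 without cross-reacting probe set types to -0.18 with a floor of 8, and 0 members were higher under any of them. The number lower was 11 as reported, 15 with no floor (2.85% of all genes were lower), 10 with the median of all genes subtracted (1.97%; ISG15 lost its call), 9 with all probe sets averaged (1.52%), 7 of 27 measured genes without cross-reacting types (2.37%), 3 of 13 with the floor of 8 (1.46%), and 1 at 2-fold (0.24%). With the floor of 8 and without cross-reacting types fewer genes were measured, and 9 and 23 were below 0. With all probe sets averaged 8 of the 11 calls were kept.

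In tamoxifen minus vehicle, a floor of 8 left 1 higher (6.57% of all genes were), 1 lower (3.67%) and 4 below 0 (45.1%). Without cross-reacting types 10 were below 0, and 0 were lower because neither IRF7 nor ISG15 was measured. At 2-fold 0 were higher and 0 lower. With all probe sets averaged the median was 0.065 and 5 of 6 higher calls were kept (4.54% of all genes were higher). With the vehicle doubled the median was -0.16, with 2 higher, 7 lower and 32 below 0, and 16 members changed sign. Among the members called as deposited these were CXCL11 (-0.49), GBP1 (-0.16) and GBP2 (-0.27).

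In estradiol minus vehicle, a floor of 8 left 5 higher (5.07% of all genes were) and 2 below 0 (44.7%), no cross-reacting types 0 below 0, and 2-fold 4 higher. With all probe sets averaged 14 of 17 higher calls were kept (4.10% of all genes were higher). Subtracting the median of all genes made 1 lower (IRF7, as 3.00% of all genes) and took the call of PSMB9 (0.58). With the vehicle doubled the median was 0.10, with 3 higher and 11 below 0, and 7 members changed sign. Among the members called as deposited these were DDX60 (-0.0080), GBP1 (-0.22) and TRIM22 (-0.058). Doubling lowers a difference by construction where the vehicle value is above the baseline, as in 34 members, and raises it in the other 7. Which scale is right was not tested. No paired analysis was possible because each group held 1 array. Dim probe sets limit what the arrays show of single members, and 12 members had several probe sets above the floor.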
